A study of Mus musculus with 4 samples.

Results

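A set of 10 nuclear receptor genes was described in myeloid cells sorted from mouse livers, with the vitamin D receptor gene Vdr set against 9 others. They were found by symbol in a table of 55487 genes. All 10 genes, Vdr, Rxra, Rxrb, Rara, Pparg, Ppard, Nr3c1, Nr4a1, Nr4a2 and Nr1d1, were present, and all 10 were among the 13496 genes with enough counts to be tested. Vdr was picked from these same libraries for its low count in fl/fl, so its values are given as a description without a test. The table holds 39 further nuclear receptor genes, of which 14 were tested.

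The samples were LysM-Cre IL10R fl/fl (2 libraries) and LysM-Cre IL10R wt/wt (2 libraries), and the study set these genotypes against each other. Both genotypes carried LysM-Cre, a Cre recombinase driven by the lysozyme 2 locus and thus expressed in monocytes, macrophages and granulocytes. In fl/fl mice the interleukin-10 (IL-10) receptor gene has loxP sites, between which Cre removes DNA; which receptor chain IL10R stands for is not in the labels. Liver leukocytes were sorted for CD45 and CD11b and against CD3 and CD11c, and polyadenylated RNA was sequenced. The labels give no age, no sex, no hour of collection and no statement that the libraries came from separate animals. The p-values therefore measure only the spread between these samples.

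Nuclear receptors are transcription factors that bind DNA directly, and many of them change their activity when a small lipophilic ligand such as a steroid, a vitamin or a fatty acid enters their binding pocket. Vdr is activated by calcitriol, the hormonal form of vitamin D, and binds DNA together with a retinoid X receptor. Macrophages can make calcitriol themselves, and vitamin D signalling is known there for its part in antimicrobial and anti-inflammatory responses.

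The libraries held 17154042 to 26441014 counts. Il10ra, which encodes the ligand-binding chain of the IL-10 receptor, had 69.3 and 14.8 CPM (counts scaled to library size) in fl/fl, against 1111 and 993 CPM in wt/wt (log2 fold change −4.64, edgeR quasi-likelihood test with Benjamini-Hochberg adjustment, adjusted p = 0.0193). Xist had 0 and 4298 counts in the fl/fl libraries and 0 counts in both wt/wt libraries, so fl/fl 2 alone held this X-inactivation transcript. The part of sex in differences between the fl/fl libraries, or between the genotypes, was not tested. Ptprc, which encodes CD45, had 1095 and 1580 CPM in fl/fl and 1114 and 1096 CPM in wt/wt, and the 5 T cell markers summed to 1.40 and 1.31 CPM in fl/fl and to 0.988 and 1.03 CPM in wt/wt. Itgax, which encodes the CD11c that the sort selected against, had 24.6 and 47.1 CPM in fl/fl, against 158 and 134 CPM in wt/wt (log2 fold change −2.02, edgeR adjusted p = 0.0197). The 8 Kupffer cell markers summed to 147 and 51.5 CPM in fl/fl, against 734 and 716 CPM in wt/wt. Nearly all of that sum was the complement genes C1qa, C1qb and C1qc, which fell in fl/fl (3 of 4 markers tested), whereas the defining marker Clec4f was at 0.873 and 0.114 CPM in fl/fl and at 0 and 0.147 CPM in wt/wt. The 6 granulocyte precursor markers summed to 1555 and 505 CPM in fl/fl and to 52.3 and 42.1 CPM in wt/wt, and the 11 neutrophil markers to 37190 and 17140 CPM in fl/fl and to 3184 and 3979 CPM in wt/wt. The 5 general macrophage markers summed to 1833 and 1985 CPM in fl/fl and to 3910 and 3644 CPM in wt/wt. The 6 classical monocyte markers summed to 15920 and 9502 CPM in fl/fl and to 11740 and 9393 CPM in wt/wt, so the genotypes overlapped. Of these 6, edgeR called 1 lower in fl/fl and 0 higher. The granulocyte precursor, neutrophil, Kupffer cell and macrophage marker sums therefore moved with genotype. Their part in the results on receptors was not tested. In bulk samples, fewer cells of a type and less RNA per cell cannot be told apart.

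Across all tested genes, 5.85% passed an adjusted p of 0.05. Genes lower in fl/fl made up 3.16%, and those higher in fl/fl 2.69%. The libraries of the genotypes did not overlap for 54.4% of tested genes. With 2 libraries against 2, an exact permutation test cannot give a p below 0.333.

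Of the 24 tested nuclear receptors, Vdr had the lowest fl/fl level relative to wt/wt. Vdr was picked from these same libraries for its low count in fl/fl. Its place, rank and spread therefore describe the difference and do not test it. The gene lies on chromosome 15 at 97854425 to 97910630 of GRCm38, on the minus strand (ENSMUSG00000022479). It had 111 and 92 counts in the fl/fl libraries, against 862 and 969 counts in the wt/wt libraries. Scaled to library size these are 6.46 and 5.25 CPM in fl/fl, against 38.7 and 35.7 CPM in wt/wt. Both fl/fl libraries were low, both wt/wt libraries were high, and the members of each pair lay close together. The means were 5.86 ± 0.858 CPM in fl/fl and 37.2 ± 2.14 CPM in wt/wt (SD, n = 2 each), a log2 fold change of −2.67 (SE 0.22), or 6.35-fold lower in fl/fl. Among all tested genes, 203 (1.5%) had a lower log2 fold change. With any 1 library left out, the value lay between −2.86 and −2.52. The spread within a genotype was small beside this: the log2 CPM of fl/fl 1 minus that of fl/fl 2 was 0.30, and that of wt/wt 1 minus wt/wt 2 was 0.12. Beside these values, the macrophage markers summed to 1833 and 1985 CPM in fl/fl and to 3910 and 3644 CPM in wt/wt, and the granulocyte precursor markers to 1555 and 505 CPM in fl/fl and to 52.3 and 42.1 CPM in wt/wt; their part in the Vdr difference was not tested.

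**Figure D1:**
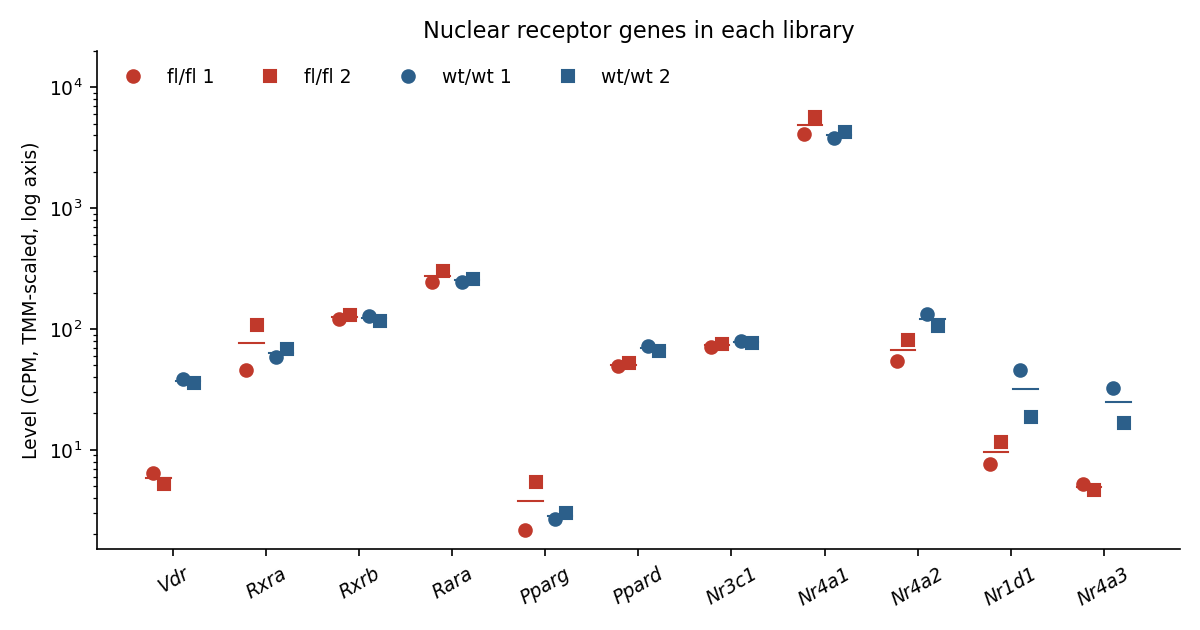
Level of the 10 nuclear receptor genes and of Nr4a3 in each library, in TMM-scaled CPM on a log axis; each point is a library, each bar the mean of a genotype, red fl/fl and blue wt/wt. Vdr, at 6.46 and 5.25 CPM in fl/fl and 38.7 and 35.7 CPM in wt/wt, has the largest difference of the genes plotted, while Rxrb, Rara and Nr4a1 overlap.

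The RefSeq window of 250 bases before and 50 after the Vdr start was read from GRCm38.p6 and is shown because Vdr is the gene the other receptors were set against. It lies on the minus strand at chr15:97908247-97908546, inside the longer GENCODE gene model. Capitals mark GGGCGG, the GC box bound by Sp factors, which was searched on both strands.

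Vdr: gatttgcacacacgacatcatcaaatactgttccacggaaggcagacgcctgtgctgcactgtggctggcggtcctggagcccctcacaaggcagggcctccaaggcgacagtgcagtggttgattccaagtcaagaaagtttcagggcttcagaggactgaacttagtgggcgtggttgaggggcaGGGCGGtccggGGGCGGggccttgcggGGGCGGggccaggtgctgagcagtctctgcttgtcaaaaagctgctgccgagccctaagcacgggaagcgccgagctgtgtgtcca

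The GC box occurred 3 times, and at least 3 copies were found in 10.7% of 32851 mouse windows of this length. Its GC content was 61.3%, against a median of 52.7% over all windows. The letters TGACG (core of the cyclic AMP response element, CRE), CACGTG (E-box of clock factors), AGGTCA (the hexamer bound by many receptors), AAAGGTCA (the NR4A element NBRE, which contains AGGTCA) and TGANTCA (AP-1) were absent from this window on either strand. A match or its absence describes these letters alone.

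Rxra and Rxrb encode retinoid X receptors, the partners that Vdr, the retinoic acid receptors and the PPARs need to bind DNA. Rxra had 45.5 and 107 CPM in fl/fl, against 58.5 and 68.2 CPM in wt/wt, so that the fl/fl libraries lay on either side of wt/wt. Its log2 fold change was 0.27, with a 95% interval of −0.60 to 1.15 (edgeR adjusted p = 0.737). Dropping fl/fl 1 gave 0.72, and dropping fl/fl 2 gave −0.47. Rxrb was steadier, at 121 and 132 CPM in fl/fl and 127 and 117 CPM in wt/wt. Its log2 fold change of 0.05 had an interval of −0.32 to 0.41 (edgeR adjusted p = 0.901), which does not reach the size of the Vdr difference.

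Rara, the retinoic acid receptor alpha gene, had 246 and 303 CPM in fl/fl and 244 and 260 CPM in wt/wt. The genotypes overlapped, with a log2 fold change of 0.12 and an interval of −0.29 to 0.54. Pparg and Ppard encode receptors for fatty acids and their derivatives. Pparg was low throughout, with 37 and 95 counts in fl/fl and 60 and 81 counts in wt/wt. Its fl/fl libraries again lay on both sides of wt/wt, and the log2 fold change of 0.41 had the widest interval of the 10 genes, −0.83 to 1.66. Dropping fl/fl 1 gave 0.89, and dropping fl/fl 2 gave −0.39. Ppard had 49.0 and 52.6 CPM in fl/fl, against 72.7 and 65.5 CPM in wt/wt. The genotypes did not overlap, with a log2 fold change of −0.44 (SE 0.16, edgeR adjusted p = 0.167), and leaving out single libraries gave −0.51 to −0.41.

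Nr3c1 encodes the glucocorticoid receptor, through which cortisol-like hormones and anti-inflammatory steroids act. It had 71.4 and 75.5 CPM in fl/fl and 79.2 and 77.1 CPM in wt/wt. The pairs did not overlap, but the difference was small, a log2 fold change of −0.09 with an interval of −0.45 to 0.27.

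Nr4a1, Nr4a2 and Nr4a3 encode the NR4A orphan receptors (Nur77, Nurr1 and Nor1), immediate early genes that are induced within minutes to hours of stimulation and act without a classical ligand. Nr4a1, needed for the survival of patrolling monocytes in mice, was by far the most abundant receptor, with 4109 and 5619 CPM in fl/fl and 3786 and 4249 CPM in wt/wt. The genotypes overlapped (log2 fold change 0.28, interval −0.23 to 0.78, edgeR adjusted p = 0.509). Nr4a2 had 53.9 and 80.6 CPM in fl/fl, against 133 and 107 CPM in wt/wt. Both fl/fl libraries were lower, with a log2 fold change of −0.84 (SE 0.23, edgeR adjusted p = 0.0901). Without fl/fl 2 it was −1.15 (adjusted p = 0.0118), and DESeq2 gave an adjusted p of 0.0161; over all alternatives the adjusted p ran from 0.000711 to 0.456.

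Nr4a3, which is not one of the 10 genes, fell in fl/fl. It had 5.18 and 4.68 CPM in fl/fl, against 32.5 and 16.8 CPM in wt/wt. All fl/fl values lay below all wt/wt values, with wt/wt 1 above wt/wt 2 by 0.95 on the log2 scale. The log2 fold change was −2.32 (SE 0.36, edgeR adjusted p = 0.0212), or 4.99-fold lower in fl/fl. Dropping wt/wt 1 gave −1.81 (adjusted p = 0.18), and dropping wt/wt 2 gave −2.72 (adjusted p = 0.0535). Within this family, then, the most abundant gene did not pass the test, and the least abundant one fell; whether the genes differ from each other in their change was not tested.

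The promoter windows of these genes are shown because they share a motif, while the levels of the genes in fl/fl relative to wt/wt ran from 0.28 to −2.32 on the log2 scale. Capitals mark TGACG or its complement CGTCA, the CRE core bound by CREB and related factors. The windows are RefSeq, GRCm38.p6, at chr15:101266596-101266895 on the plus strand for Nr4a1, chr2:57123954-57124253 on the minus strand for Nr4a2 and chr4:48045055-48045354 on the plus strand for Nr4a3.

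Nr4a1: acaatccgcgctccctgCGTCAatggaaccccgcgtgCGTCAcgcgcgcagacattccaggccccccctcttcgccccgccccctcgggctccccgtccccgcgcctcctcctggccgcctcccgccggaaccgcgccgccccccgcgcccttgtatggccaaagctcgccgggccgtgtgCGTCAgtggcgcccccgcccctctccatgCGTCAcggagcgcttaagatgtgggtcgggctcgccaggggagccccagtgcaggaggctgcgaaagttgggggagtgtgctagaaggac

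Nr4a2: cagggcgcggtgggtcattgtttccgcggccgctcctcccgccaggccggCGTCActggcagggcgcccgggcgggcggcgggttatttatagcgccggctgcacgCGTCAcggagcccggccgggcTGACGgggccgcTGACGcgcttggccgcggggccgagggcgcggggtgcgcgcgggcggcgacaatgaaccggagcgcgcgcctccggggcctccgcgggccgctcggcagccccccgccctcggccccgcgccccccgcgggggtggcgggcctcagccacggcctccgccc

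Nr4a3: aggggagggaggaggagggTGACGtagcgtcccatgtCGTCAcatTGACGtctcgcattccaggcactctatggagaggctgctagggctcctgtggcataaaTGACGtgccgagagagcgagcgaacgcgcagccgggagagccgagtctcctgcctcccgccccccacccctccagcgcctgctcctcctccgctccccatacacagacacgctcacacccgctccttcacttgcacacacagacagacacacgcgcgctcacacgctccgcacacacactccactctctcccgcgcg

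Each of these windows held the CRE core 4 times, counting both strands. At least 4 copies were found in 0.231% of all windows and at least 1 copy in 20.8%. The windows of Vdr, Rxra, Pparg and Nr1d1 held none. The GC content was 72.3% for Nr4a1, 81.7% for Nr4a2 and 64.7% for Nr4a3. A window was used for 9 of the 10 genes, and in it Rxrb, Rara and Ppard each had a copy in at least 1 of their windows.

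Nr1d1 encodes REV-ERB alpha, a haem-binding repressor of the circadian clock that also represses inflammatory genes in macrophages. It had 130 and 203 counts in fl/fl, against 1011 and 507 counts in wt/wt, or 7.57 and 11.6 CPM in fl/fl against 45.4 and 18.7 CPM in wt/wt. The genotypes did not overlap, but the wt/wt libraries differed by 1.28 on the log2 scale. The log2 fold change was −1.74 (SE 0.44), which did not pass the edgeR test (adjusted p = 0.0729). Dropping wt/wt 1 gave −1.01, dropping wt/wt 2 gave −2.24 and dropping fl/fl 2 gave −2.07 (adjusted p = 0.0303), while DESeq2 gave an adjusted p of 0.0017. Exons of Nr1d1 share 263 bases, 8.55% of its exonic length, with Thra on the opposite strand, and reads there cannot be told apart if counting ignored the strand.

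Apart from Vdr, 0 of 9 genes passed the edgeR test, against 5.85% of all tested genes; 3 of the 9 (Ppard, Nr4a2 and Nr1d1) had an unadjusted p under 0.05, DESeq2 called 2 and limma-voom 0. Without fl/fl 2 edgeR called 2. With Vdr, the genotypes did not overlap for 5 of the 10 genes, near the 54.4% of all tested genes, and the median log2 fold change of the 10 was −0.02, against 0.02 over all tested genes.

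**Figure D2:**
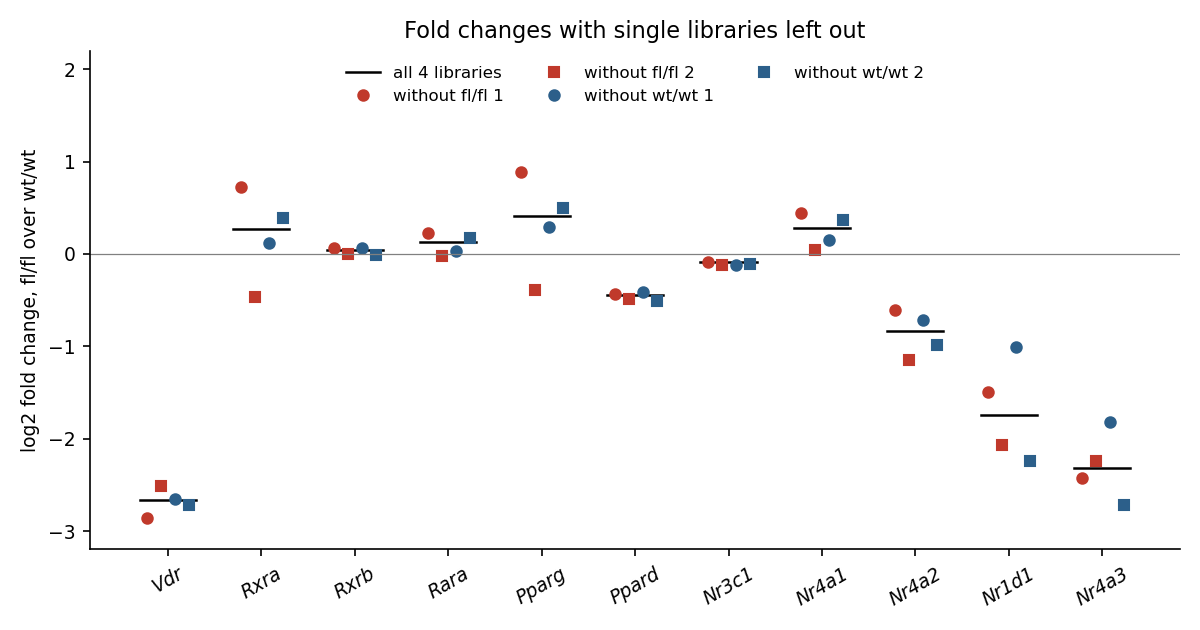
Log2 fold change, fl/fl over wt/wt, of the 10 genes and Nr4a3; the line is the value from all 4 libraries and each symbol the value with the named library left out. Vdr stayed between −2.86 and −2.52, whereas Rxra ran from −0.47 to 0.72 and Pparg from −0.39 to 0.89, on both sides of 0.

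Of the 39 other nuclear receptor genes, 25 had too few counts to be tested, none with more than 25 counts over the 4 libraries, and 11 were at 0 in every library. Of the 14 tested, 1 passed, Nr4a3, against 3.16% of tested genes called lower in fl/fl. The count was 3 once fl/fl 2 was dropped and 0 once either wt/wt library was. Their median log2 fold change was −0.02, and the genotypes did not overlap for 6 of the 14, against 54.4% of all tested genes. Thra, a thyroid hormone receptor gene, had 7.69 and 9.36 CPM in fl/fl, against 18.4 and 14.5 CPM in wt/wt (log2 fold change −0.95, edgeR adjusted p = 0.0879). Nr1d2, which encodes REV-ERB beta, had 6.41 and 18.5 CPM in fl/fl, against 27.3 and 27.1 CPM in wt/wt. Here fl/fl 1 alone was far below wt/wt, and the log2 fold change of −1.12 (adjusted p = 0.201) became −0.59 when fl/fl 1 was dropped and −2.08 when fl/fl 2 was. Nr1h3, the oxysterol receptor LXR alpha, showed the same split, with 6.29 and 16.3 CPM in fl/fl and 19.2 and 17.2 CPM in wt/wt. Its partner in function Nr1h2 (LXR beta) had 192 and 167 CPM in fl/fl and 192 and 154 CPM in wt/wt. Rarg had 90.3 and 115 CPM in fl/fl and 90.2 and 111 CPM in wt/wt, and Esrra, an estrogen-related receptor, 121 and 132 CPM in fl/fl and 112 and 135 CPM in wt/wt; both overlapped.

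**Figure D3:**
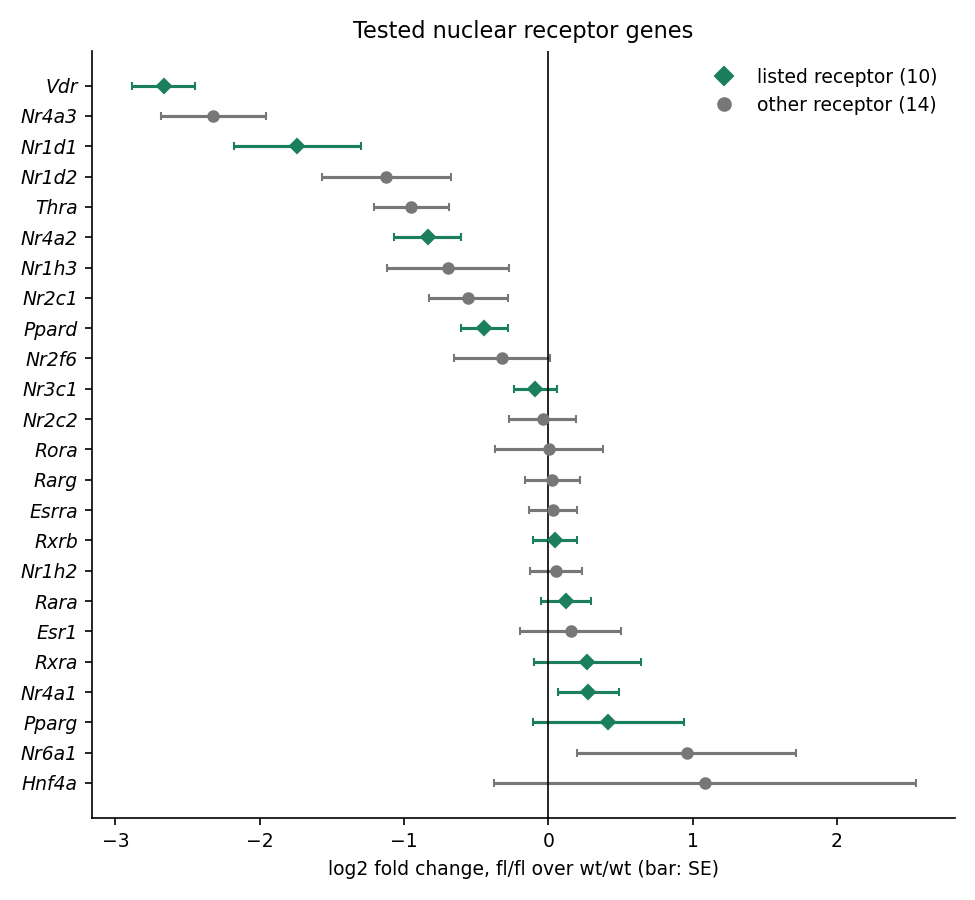
Log2 fold change, fl/fl over wt/wt, of the 24 tested nuclear receptor genes, ordered by size; bars are the SE, green diamonds the 10 genes and grey circles the 14 others. Vdr (−2.67) and Nr4a3 (−2.32) lie at the low end, followed by Nr1d1 (−1.74), and Hnf4a (1.09) lies at the high end with the longest bar.

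To compare genes with each other, counts were divided by exonic length and scaled to TPM. Nr4a1 stood first in both genotypes, at means of 3744 TPM in fl/fl and 3432 TPM in wt/wt. Rara followed at 170 TPM in fl/fl and 173 TPM in wt/wt, and its range overlapped that of Nr1h2 below it in both genotypes. Vdr took place 18 of 24 in fl/fl, at 2.63 to 2.89 TPM, and place 13 in wt/wt, at 19.4 to 19.9 TPM. In fl/fl its range lay within that of Pparg above it (1.84 to 5.19 TPM) and above that of Nr2c2 below it (2.55 to 2.57 TPM). In wt/wt it overlapped neither Nr1h3 above it (21.1 to 22.2 TPM) nor Nr1d2 below it (14.7 to 15.4 TPM). Nr1d1 averaged 8.43 TPM in fl/fl and 30.8 TPM in wt/wt, and Nr4a2 44.8 TPM in fl/fl and 88.2 TPM in wt/wt. Rxra, at 38.3 TPM in fl/fl and 34.8 TPM in wt/wt, was above Vdr in both genotypes, and Rxrb, at 85.5 TPM in fl/fl and 92.1 TPM in wt/wt, was higher still.

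**Figure D4:**
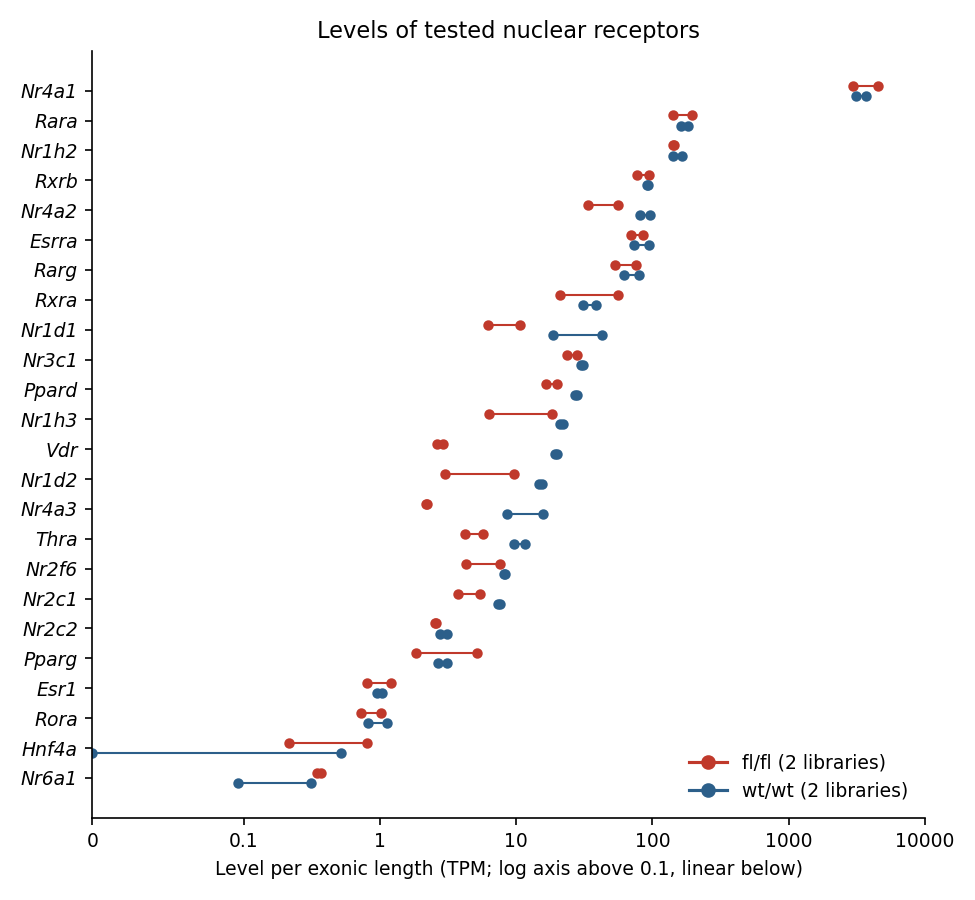
Level of the 24 tested nuclear receptors per exonic length, in TPM (log axis above 0.1, linear below); points are libraries joined by a line, red fl/fl above blue wt/wt. Vdr, at 2.63 to 2.89 TPM in fl/fl and 19.4 to 19.9 TPM in wt/wt, is separated by more than the width of either pair.

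The 5 genes whose centred log2 CPM profile over the 4 libraries lay nearest to Vdr, among 6747 genes of at least median level, were Rgs1, Atp2b4, AI504432, Bnip3 and Pde3b. Their Euclidean distances were 0.159, 0.234, 0.315, 0.338 and 0.375, against a median of 2.72 over all genes compared. Rgs1, a regulator of G protein signalling, had 111 and 102 CPM in fl/fl, against 757 and 632 CPM in wt/wt. The nearest nuclear receptor was Nr4a3 at a distance of 0.736, followed by Nr1d1 at 1.46. With 4 libraries, such likeness is mostly the shared difference between genotypes.

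Of 8 listed genes of vitamin D metabolism and transport, 4 had enough counts to be tested. Of these, 0 passed the edgeR test, against 5.85% of all tested genes, and 1 had an unadjusted p under 0.05. DESeq2 called 1 and limma-voom 0. Dhcr7, whose enzyme turns the vitamin D precursor into cholesterol, had 7.34 and 7.88 CPM in fl/fl, against 15.9 and 15.4 CPM in wt/wt. Both fl/fl libraries were low, with a log2 fold change of −1.04 (edgeR adjusted p = 0.0562; 0.0428 without fl/fl 2). Cyp27a1, a mitochondrial sterol hydroxylase, had 106 and 196 CPM in fl/fl and 137 and 145 CPM in wt/wt. Cyp27b1, whose enzyme makes calcitriol, had 0 and 7 counts in fl/fl and 16 and 0 counts in wt/wt, so no direction can be read from it. Cyp24a1, the calcitriol-degrading enzyme and a strongly induced Vdr target, had 0 counts in all 4 libraries. The upper limit of 3 counts, taken for a count of 0, equals 0.175 and 0.171 CPM in fl/fl and 0.135 and 0.111 CPM in wt/wt.

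Of 12 listed Vdr target genes, 7 had 0 counts in every library and 5 were tested. Fbp1, a gluconeogenic enzyme gene known in human monocytes as a vitamin D target, rose in fl/fl. It had 2.45 and 5.14 CPM in fl/fl, against 0.494 and 0.626 CPM in wt/wt (log2 fold change 2.74, SE 0.60, edgeR adjusted p = 0.0487). This is 1 gene of 5 tested, against 2.69% of all tested genes called higher, and the call was lost when fl/fl 2 was dropped (2.12, adjusted p = 0.164) and with limma-voom (adjusted p = 0.0866). Dropping fl/fl 1 gave 3 calls in this list, 1 higher and 2 lower. With limma-voom, and with fl/fl 2 dropped, the only call of the list was a lower one. Spp1, which encodes the matrix protein osteopontin, had 61.0 and 5.31 CPM in fl/fl, against 283 and 354 CPM in wt/wt. Both fl/fl libraries were below wt/wt but differed widely from each other, with a log2 fold change of −3.27 (adjusted p = 0.0934). It passed in 5 of 13 alternatives, among them the fits without fl/fl 1 (−5.94) and without fl/fl 2 (−2.38). Cd14, the endotoxin co-receptor gene, had 1125 and 364 CPM in fl/fl and 742 and 730 CPM in wt/wt, so that the fl/fl libraries lay on either side of wt/wt.

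Nuclear receptor coregulators bridge receptors to chromatin enzymes. Of 17 listed, 16 were tested and 1 passed: Nrip1, which encodes the corepressor RIP140, fell in fl/fl, with 22.8 and 18.4 CPM in fl/fl, against 61.5 and 50.2 CPM in wt/wt (log2 fold change −1.44, SE 0.20, edgeR adjusted p = 0.0182). That is 1 gene of the 16 tested, against 3.16% of all tested genes called lower in fl/fl. The log2 fold change was negative for 12 of the 16, against 6495 of all 13496 tested genes. The median was −0.19, against 0.02 over all tested genes. The coactivator gene Ncoa3 had 145 and 154 CPM in fl/fl, against 269 and 202 CPM in wt/wt (log2 fold change −0.65, adjusted p = 0.0975).

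Among 14 genes of retinoid metabolism and response, 6 were tested and 1 passed, against 3.16% of all tested genes called lower in fl/fl. The log2 fold change was positive for 3 of the 6 and negative for 3, with a median of −0.07. Dhrs3, which encodes a retinaldehyde reductase, fell in fl/fl, with 70.9 and 34.6 CPM in fl/fl, against 134 and 163 CPM in wt/wt (log2 fold change −1.49, SE 0.33, edgeR adjusted p = 0.0487; 0.051 with RLE size factors). Dropping fl/fl 1 gave −2.14, and dropping fl/fl 2 gave −1.06. Tgm2, a transglutaminase gene that retinoic acid induces in macrophages, had 294 and 53.6 CPM in fl/fl, against 1876 and 1106 CPM in wt/wt. Its fl/fl libraries were both low yet far apart, and its log2 fold change of −3.10 had an adjusted p of 0.0611. It passed in 8 of 13 alternatives, among them the fits without fl/fl 1 (−4.83) and without fl/fl 2 (−2.33). Dropping fl/fl 1 left 2 calls in this list, and dropping fl/fl 2 left 3.

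PPAR target genes of fatty acid uptake and oxidation showed no common direction. Of 14 listed, 12 were tested and 0 passed the edgeR test, against 5.85% of all tested genes. Of the 12, 4 had an unadjusted p under 0.05, DESeq2 called 2 and limma-voom 0. Their median log2 fold change was 0.00. Acaa2, a beta-oxidation thiolase gene, had 68.5 and 75.4 CPM in fl/fl, against 32.1 and 46.6 CPM in wt/wt (log2 fold change 0.87, adjusted p = 0.0692). Olr1, a receptor gene for oxidised lipoprotein, had 11.1 and 7.02 CPM in fl/fl, against 23.5 and 19.8 CPM in wt/wt (adjusted p = 0.0556). Dropping either fl/fl library gave 1 call.

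Glucocorticoid receptor target genes were divided in direction. Of 14 listed, 13 were tested, 1 rose and 2 fell, against 2.69% of all tested genes called higher and 3.16% called lower. The median log2 fold change was 0.01. Sgk1, a kinase gene induced by glucocorticoids, fell in fl/fl, with 447 and 422 CPM in fl/fl, against 1341 and 1147 CPM in wt/wt (log2 fold change −1.52, edgeR adjusted p = 0.012). Errfi1, an inhibitor of epidermal growth factor receptor signalling, had 18.6 and 18.9 CPM in fl/fl, against 89.9 and 54.0 CPM in wt/wt (−1.94, adjusted p = 0.0165). Hsd11b1, whose enzyme regenerates active glucocorticoid, rose in fl/fl, with 74.3 and 24.1 CPM in fl/fl, against 5.70 and 9.58 CPM in wt/wt (2.68, adjusted p = 0.0385). Its value was 1.61 when fl/fl 1 was dropped and 3.28 when fl/fl 2 was, and limma-voom gave an adjusted p of 0.0687. Tsc22d3, which encodes the glucocorticoid-induced leucine zipper protein, had 372 and 348 CPM in fl/fl, against 140 and 223 CPM in wt/wt, above wt/wt in both libraries without passing (adjusted p = 0.063). Without fl/fl 2, 8 genes of this list passed.

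Immediate early genes are the class to which the NR4A genes belong. All 14 listed were tested; 2 fell in fl/fl, against 3.16% of all tested genes, and 12 did not pass. The log2 fold change was negative for 13 of the 14, against 6495 of all 13496 tested genes. The median was −0.48, against 0.02 over all tested genes. This list, like the others, was chosen with earlier results of these data known. Egr1, a zinc finger factor gene, had 1817 and 1960 CPM in fl/fl, against 3502 and 3292 CPM in wt/wt (log2 fold change −0.85, edgeR adjusted p = 0.0382). Egr2 had 46.2 and 55.5 CPM in fl/fl, against 130 and 102 CPM in wt/wt (−1.19, adjusted p = 0.0223). The libraries did not overlap for 13 of the 14, against 54.4% of all tested genes; in 1 of these 13, Ier2, fl/fl was the higher, with 1949 and 1989 CPM in fl/fl and 1664 and 1740 CPM in wt/wt (adjusted p = 0.511). Dropping either fl/fl library gave 4 calls, and DESeq2 gave 6.

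Of 16 circadian clock genes, 14 were tested and 2 fell, against 3.16% of all tested genes, both encoding the related repressors DEC1 and DEC2. The count was 1 with limma-voom and 1 at a mean CPM of at least 5, where Bhlhe41 has no value. The median log2 fold change was −0.37. Bhlhe40 (DEC1) had 239 and 260 CPM in fl/fl, against 836 and 719 CPM in wt/wt (log2 fold change −1.64, SE 0.17, edgeR adjusted p = 0.0108). Bhlhe41 (DEC2) had 4 and 0 counts in fl/fl, against 69 and 96 counts in wt/wt (adjusted p = 0.0394, 0.0525 with limma-voom). Its fitted log2 fold change depends on the prior count, with −4.77 at the default of edgeR and −3.33 at 5; it was −9.22 when fl/fl 1 was dropped and −3.80 when fl/fl 2 was. The core clock activator Arntl had 6.75 and 8.05 CPM in fl/fl and 7.64 and 8.18 CPM in wt/wt, and Per1 457 and 477 CPM in fl/fl and 636 and 406 CPM in wt/wt. Both overlapped. Without fl/fl 2, 7 genes of this list passed, 2 of them higher and 5 lower in fl/fl. When wt/wt 1 was dropped, edgeR called 0 genes of the whole table (1576 had an unadjusted p under 0.05), and when wt/wt 2 was dropped it also called 0 (2333 had an unadjusted p under 0.05). The calls on all these lists were lost in both cases.

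**Figure D5:**
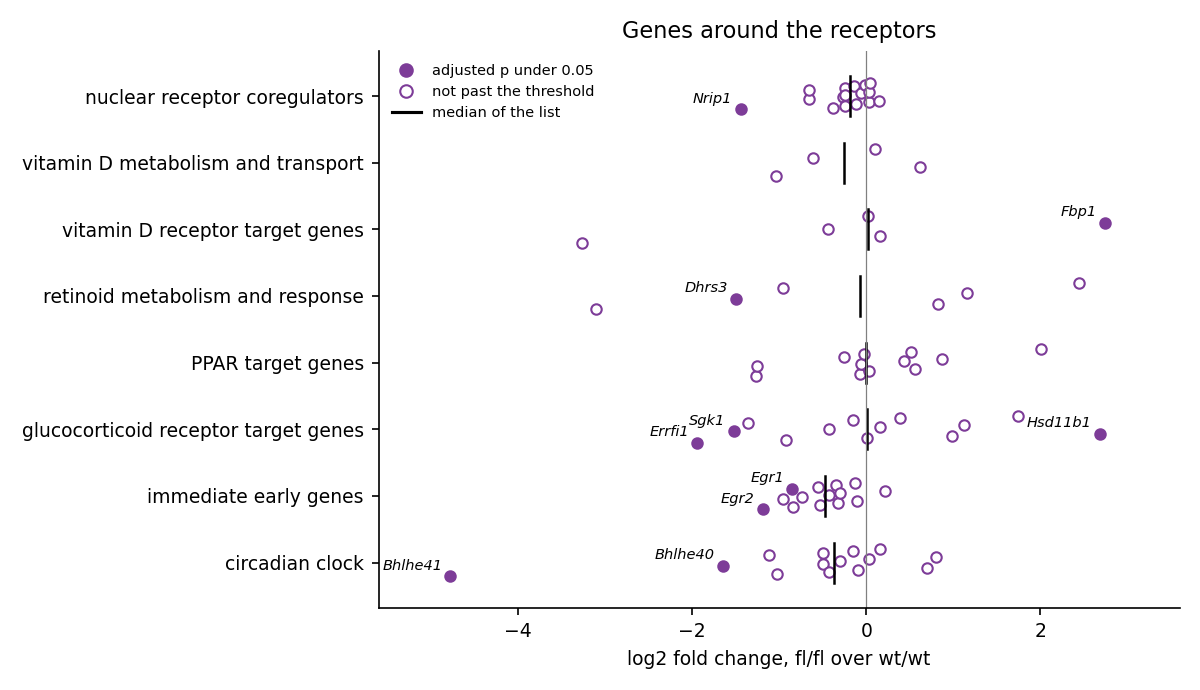
Log2 fold change, fl/fl over wt/wt, of the tested genes in 8 lists around the receptors; each point is a gene, filled where the edgeR adjusted p was under 0.05, and the black bar is the list's median. The immediate early genes and the clock genes have medians of −0.48 and −0.37, and the other 6 lists have medians nearer to 0.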

How the data were processed

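Poly(A)-enriched RNA from sorted liver myeloid cells was measured in 4 libraries, 2 fl/fl and 2 wt/wt. The authors deposited raw counts per Ensembl gene, made, per the submitters' processing notes, with STAR 2.5.0 on GRCm38 after Trimmomatic 0.33 and FastQC 0.11.5. How reads were assigned to genes, and with which strand setting and annotation, is not given in the sources used here. GENCODE M21 supplied gene symbols, coordinates and exonic lengths but no symbol for 260 of 55487 identifiers.

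In edgeR 4.0.16 (R 4.3.3), filterByExpr with a minimum count of 10 kept 13496 of 22696 genes with any count, the libraries were scaled by TMM, and genotypes were compared by the quasi-likelihood test with genotype alone in the model. Two-sided p-values were adjusted by Benjamini-Hochberg over all tested genes, and the threshold was 0.05. Fold changes use the default prior count of edgeR, and SDs and intervals (95%) refer to 2 libraries a genotype. The biological coefficient of variation was 25.5%. An upper limit of 3 counts is used where a gene has 0. Like every interval from counts, this limit leaves PCR duplication out. The steps were tested on simulated data.

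The members and lists were chosen with earlier results of these data known. All 10 members were named, other receptors with enough counts could be, and each list's genes past the threshold were, with up to 3 further genes of smallest unadjusted p; Cyp27a1, Cyp27b1, Cyp24a1, Cd14, Per1 and Arntl were named after their values were seen. Genes like Vdr were the 5 nearest by Euclidean distance. As alternatives, DESeq2 1.42.0 and limma-voom (limma 3.58.1) were run, scaling was changed to RLE, upper quartile or library size only, the filter was dropped or set to a mean CPM of 5, the prior count was raised to 5, the replicate number was added as a block, and each library was left out. Promoter windows were RefSeq, GRCm38.p6.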

Additional observations from a re-analysis of the deposited data

How the results depend on the processing

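Genes called over the whole table numbered 790 as reported, 2088 with no filter, 1618 with DESeq2 and 1215 with the replicate block, and 0 to 1477 with a library left out. Members other than Vdr called were 0 as reported, 1 with library size only, 2 with no filter, 2 with DESeq2, 1 with the replicate block and 0 to 2 with a library left out. Other receptors called were 1 as reported, 3 with no filter, 2 with DESeq2 and 0 to 3 with a library left out. The log2 fold change of Vdr lay between −2.86 and −2.52 with a library left out. The cause of these moves was not tested.

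Signs changed only for genes that did not pass. Rora, at 0.00 as reported, was −0.014 with RLE size factors, −0.0098 with library size only, −0.021 with upper quartile scaling, −0.011 with no filter, −0.014 with DESeq2 and −0.0039 with limma-voom. With a library left out the log2 fold change ran from −0.47 to 0.72 for Rxra, −0.0075 to 0.068 for Rxrb, −0.027 to 0.23 for Rara, −0.39 to 0.89 for Pparg, −0.16 to 0.19 for Rarg, −0.21 to 0.20 for Rora, −0.096 to 0.17 for Nr1h2, −0.032 to 7.18 for Hnf4a, −0.16 to 0.044 for Nr2c2, −0.071 to 0.32 for Esr1, −0.14 to 0.18 for Esrra and −0.11 to 0.41 for Thbd.

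Deviations of libraries with the same replicate number correlated at 0.0215, so the numbers were not taken to pair the libraries. Leaving out a library leaves 1 in its genotype, whose spread is then taken from the other genotype. The 25 untested receptors have no fold change at this depth, which does not show that they are absent. At a mean CPM of at least 5, Pparg, Rora, Esr1, Hnf4a, Nr6a1, Bhlhe41, Fbp1, Gc and Cyp2r1 have no value.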
